A study of Mus musculus with 25 samples.

Results

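A set of 10 genes of the bone morphogenetic protein (BMP) pathway was followed in gonadal white adipose tissue: the ligands Bmp2, Bmp3, Bmp4 and Bmp6, the receptors Bmpr1a, Bmpr1b and Bmpr2, and the secreted antagonists or modulators Bmper, Grem1 and Chrdl1. These 10 genes were among 22180 genes with their own symbol on the array, and each was read by exactly 1 transcript cluster. They were chosen with values of these arrays known: Bmp3 for its difference between diets, and Bmper and Grem1 for their change over time. Those values are therefore given as descriptions, with no test. Tissue came from male heterozygous ApoE3L.CETP mice, which carry the ApoE3Leiden and human CETP transgenes, and every group carried them. The sources used here do not name the promoters that drive the transgenes. From 12 weeks of age, mice received a high-fat diet (HFD, D14010701) or a low-fat diet (LFD, D12450B) for 4, 8 or 12 weeks. The HFD held 60% fat, 20% carbohydrate, 20% protein and 0.25% cholesterol, and the LFD held 10% fat, 70% carbohydrate and 20% protein, so the diets differed in more than fat. A chow group, also males of this genotype, was sampled as a baseline at 12 weeks of age. Each array measured 1 mouse, a biological replicate per the labels, so p-values refer to the spread between mice: 3 HFD and 4 LFD mice at 4 weeks, 4 HFD and 4 LFD mice at 8 weeks, 4 HFD and 4 LFD mice at 12 weeks, and 2 chow mice. The labels state ages of 16 and 20 weeks for the 4-week and 8-week groups and 34 weeks for the 12-week groups. The last does not match the stated time on diet, so time on diet is used here.

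BMPs are secreted dimers of the TGF-beta superfamily. They bind a pair of type I receptors (such as Bmpr1a and Bmpr1b) and a pair of type II receptors (such as Bmpr2), and the type I kinase then phosphorylates Smad1, Smad5 or Smad9, which enter the nucleus with Smad4 and switch on targets such as the Id genes. Antagonists in the extracellular space, among them noggin, gremlins and chordin-like proteins, bind the ligands and keep them from the receptors. In fat, BMP signalling is known for committing mesenchymal precursors to the adipocyte lineage and for effects on thermogenic adipocytes.

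The values were levels on the log2 scale, 1 unit being a doubling, and array medians lay between 5.04 and 5.36. A level also depends on the probes, so levels of different genes were not compared. Differences were tested with limma over all 22180 genes, and a gene was called, rising or falling, at a Benjamini-Hochberg adjusted p under 0.05. The adipocyte markers Adipoq, Plin1 and Cidec were above the median cluster on 25 of 25 arrays. Some arrays stood apart by transcripts of other tissues. The mean of 24 hepatocyte genes was between 8.97 and 10.75 on 11 of the 16 arrays at 8 and 12 weeks and at most 7.34 on the other 14 arrays, and Alb was at least 12.96 on those 11 arrays. The 11 arrays were HFD replicates 2, 3 and 4 and LFD replicates 1 and 2 at 8 weeks, and replicates 1, 2 and 4 of both diets at 12 weeks. The mean of the epididymis epithelium list was 10.64 on chow replicate 1, 9.07 on HFD replicate 1 at 4 weeks and 5.09 on LFD replicate 1 at 4 weeks, and at most 3.86 on the other arrays. Some values without these arrays are given below for Bmp2, Bmp3, Bmp4, Bmpr1a, Bmper and Grem1. The differences of Bmp6, Bmpr1b, Bmpr2 and Chrdl1 are given only with them. In whole tissue, fewer cells of a type and less RNA per cell cannot be told apart.

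**Figure D1:**
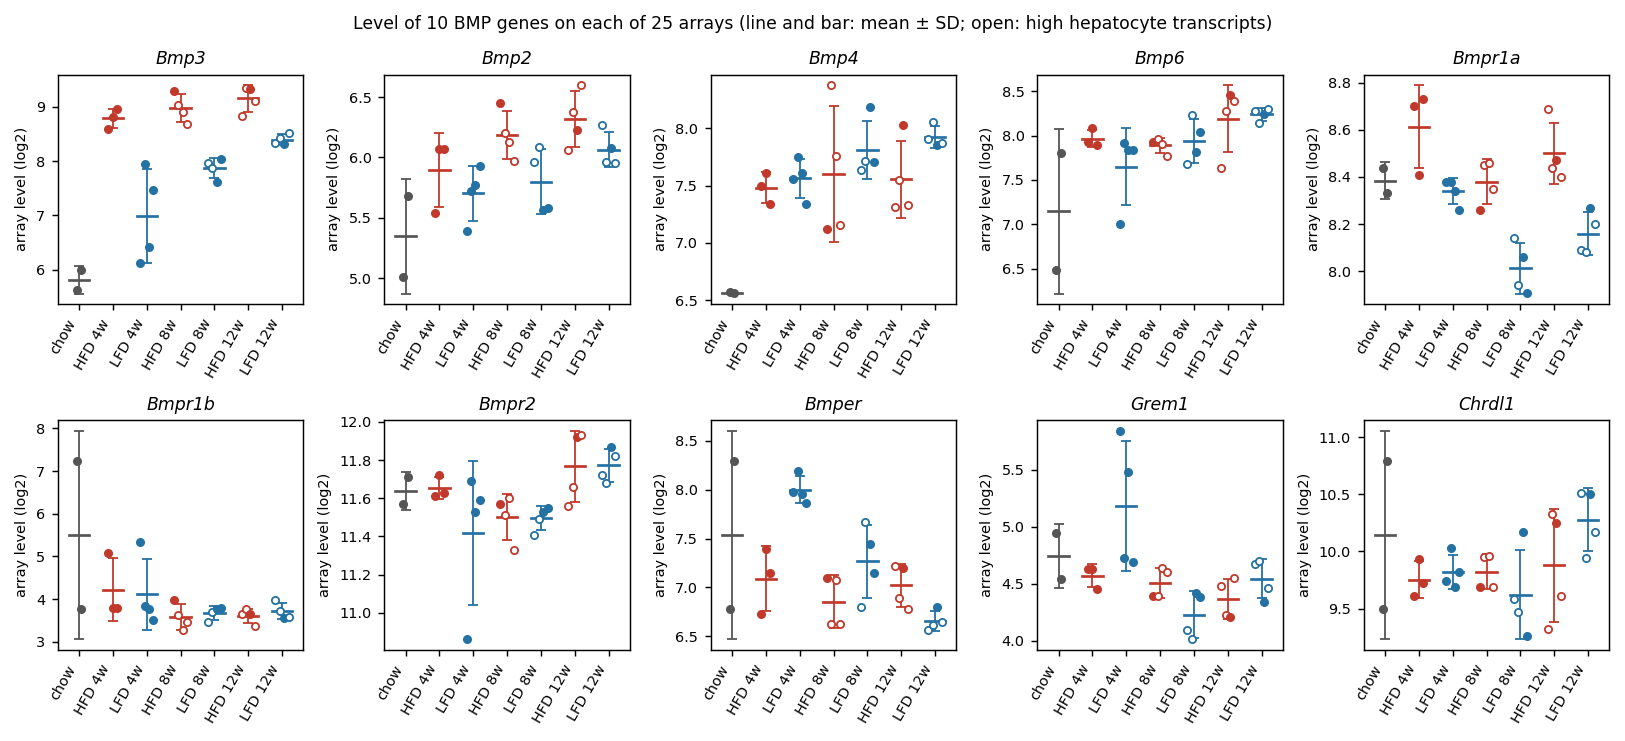
Level of each of the 10 BMP genes on every array (log2, points), with the group mean and SD (line and bar), for chow and for HFD and LFD at 4, 8 and 12 weeks. Open points are the 11 arrays with high hepatocyte transcripts. Bmp3 lay above 8.5 on all 11 HFD arrays, and its LFD levels were highest at 12 weeks.

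Among the ligands, Bmp3 covered the widest range, and it was higher on HFD than on LFD at every time. Bmp3 is an atypical BMP that opposes other BMPs in bone. At 4 weeks its level was 8.59, 8.81 and 8.95 in HFD mice, against 6.12, 7.95, 6.43 and 7.46 in LFD mice. At 8 weeks it was 9.28, 9.03, 8.90 and 8.68 in HFD mice, against 7.96, 7.88, 7.61 and 8.03 in LFD mice. At 12 weeks it was 8.82, 9.35, 9.33 and 9.10 in HFD mice, against 8.33, 8.43, 8.31 and 8.51 in LFD mice. The diets did not overlap at any time, and the LFD arrays at 4 weeks were the most spread. The chow arrays were the lowest of all 25, at 5.64 and 6.00.

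The described difference between HFD and LFD in Bmp3 was 1.79 ± 0.28 at 4 weeks (log2 fold change ± SE, 3.47-fold), 1.10 ± 0.26 at 8 weeks (2.15-fold) and 0.76 ± 0.26 at 12 weeks (1.69-fold). The smaller gap at later times went with the LFD arrays: LFD mice at 12 weeks were 1.41 ± 0.26 above LFD mice at 4 weeks, whereas HFD mice at 12 weeks were 0.37 ± 0.28 above HFD mice at 4 weeks. Against chow, HFD mice at 4 weeks were 2.96 ± 0.34 higher and LFD mice at 4 weeks were 1.17 ± 0.32 higher. In order of level, the HFD groups came first, at 9.15 ± 0.25 (12 weeks), 8.97 ± 0.25 (8 weeks) and 8.78 ± 0.18 (4 weeks, mean ± SD), and these 3 neighbours differed by less than the larger SD. The LFD groups followed at 8.39 ± 0.09 (12 weeks), 7.87 ± 0.18 (8 weeks) and 6.99 ± 0.86 (4 weeks), and then chow at 5.82 ± 0.25. Each of these lower steps was larger than the larger SD of its 2 groups.

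As a description, without the 3 arrays highest in epididymis genes, Bmp3 was 1.60 higher in HFD than in LFD mice at 4 weeks. Among arrays without high hepatocyte transcripts it was 1.46 higher at 8 weeks (1 HFD and 2 LFD arrays) and 1.02 higher at 12 weeks (1 array each), numbers of arrays too small to show whether the difference holds. Marker lists moved with diet too. Of 14 macrophage markers, 12 rose in HFD against LFD mice at 12 weeks (4.46% of all genes were called) and 14 in the average over time (10.5%). Of 11 progenitor and fibroblast markers, 3 rose at 12 weeks and 5 in the average over time, and the mean of that list at 12 weeks was 9.35 to 9.44 in HFD mice and 8.96 to 9.22 in LFD mice. The part of both lists in the Bmp3 difference was not tested. The defining macrophage markers Adgre1, Cd68 and Itgam and the progenitor markers Pdgfra, Dpp4 and Pi16 were above the median cluster on 25 of 25 arrays, and the mean of the macrophage list was 9.37 to 10.05 in HFD and 7.99 to 8.53 in LFD mice at 12 weeks.

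The change of Bmp3 over time, averaged over both diets, was not the value that chose the gene. It uses the same arrays, however, and the LFD arrays changed more (1.41 on LFD, 0.37 on HFD). This comparison was added after the values had been seen, so its p-value is not independent of the choice by diet. Bmp3 rose by 0.89 ± 0.19 in 12-week against 4-week mice (1.85-fold, limma adjusted p = 0.0160, 95% interval 0.49 to 1.29), where 4.13% of the 22180 genes were called. The call held with each of the 15 arrays left out in turn. It did not hold with the hepatocyte split as a block (adjusted p = 0.0713) or with hepatocyte and epididymis means as covariates (adjusted p = 0.0613), although the difference was then 0.96 and 0.90, nor on the 14 arrays without high hepatocyte transcripts (0.93, adjusted p = 0.688). At 8 against 4 weeks the difference was 0.53 ± 0.19 and was not called (limma adjusted p = 0.148), with 1.28% of genes called.

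Bmp2, which can drive osteoblast and adipocyte differentiation, was not called between diets in the fit to all arrays, and was called when 1 array, described below, was left out. At 12 weeks its level was 6.06, 6.38, 6.23 and 6.60 in HFD mice, against 6.27, 5.96, 6.08 and 5.95 in LFD mice. At 8 weeks it was 6.45, 6.20, 6.13 and 5.97 in HFD mice, against 5.96, 6.09, 5.56 and 5.58 in LFD mice. At 4 weeks it was 5.54, 6.07 and 6.07 in HFD mice, against 5.39, 5.72, 5.77 and 5.93 in LFD mice. The diets overlapped at each time. Averaged over the 3 times, the difference was 0.28 ± 0.10 (95% interval 0.07 to 0.49, limma adjusted p = 0.0920). The lowest 4-week HFD array was replicate 1, the one with 9.07 for the epididymis list. Without that array the difference was 0.34 and was called (limma adjusted p = 0.0392). Without the 3 arrays highest in epididymis genes it was 0.30 (adjusted p = 0.0247). With each of 23 arrays left out in turn, Bmp2 was called in 1 fit, the one without HFD replicate 1 at 4 weeks. The limma adjusted p of these fits reached 0.196. Of 16 other settings, 3 called Bmp2, the fit without the 3 epididymis arrays among them.

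Bmp4, the ligand best known for committing precursors to the fat lineage, was higher in the 4-week groups than in chow and was not called between diets. Its level was 7.56, 7.75, 7.61 and 7.34 in LFD mice at 4 weeks and 7.50, 7.61 and 7.34 in HFD mice at 4 weeks, against 6.57 and 6.56 in chow mice. No 4-week array overlapped with chow. Of the 7 members tested, Bmp4 was the 1 called in LFD mice at 4 weeks against chow. None was called in HFD mice at 4 weeks against chow. In that HFD comparison, Bmp2 (0.55 ± 0.22), Bmp4, Bmp6 (0.82 ± 0.29) and Bmpr1b (-1.28 ± 0.61) had an unadjusted p under 0.05 by limma. So did 4107 of all 22180 genes. On chow replicate 1, the array with 10.64 for the epididymis list, Bmpr1b was 7.23, Bmp6 6.49 and Bmp2 5.01. On chow replicate 2 they were 3.77, 7.80 and 5.68. For Bmp4, the difference from chow in LFD mice at 4 weeks was 1.00 ± 0.26, a rise (limma adjusted p = 0.0492, 1.55% of genes called). In HFD mice at 4 weeks it was 0.92 ± 0.27 and was not called (adjusted p = 0.0546, 4.18% of genes called). The LFD call rested on few arrays: it held in 2 of 6 fits that left out an array and was lost without chow replicate 1 (1.01, adjusted p = 0.367) and without LFD replicate 2, 3 or 4. The mean of the 8 mesothelial markers moved with it: 8.10 to 8.50 in LFD mice and 7.98 to 8.21 in HFD mice at 4 weeks, against 7.30 and 7.40 in chow mice. Of the 8, 1 rose in each comparison with chow, and the defining markers Upk3b, Msln and Krt19 were above the median cluster on 25 of 25 arrays. Markers of other lists rose too. In LFD mice at 4 weeks these were 2 of 12 adipocyte and 1 of 11 progenitor and fibroblast markers. In HFD mice at 4 weeks they were 4 of 14 macrophage, 3 of 11 progenitor and fibroblast and 1 of 12 adipocyte markers. The part of these lists in the Bmp4 values was not tested. Chow mice were 12 weeks old and the 4-week mice 16 weeks old, so diet and age cannot be told apart there.

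Between diets, Bmp4 spread widely at the later times. The 8-week level was 7.12, 8.38, 7.76 and 7.16 in HFD mice, against 7.64, 7.72, 8.19 and 7.71 in LFD mice. The 12-week level was 7.31, 7.55, 8.03 and 7.33 in HFD mice, against 7.91, 8.06, 7.86 and 7.87 in LFD mice. Of the 4 HFD arrays at 12 weeks, 3 lay below every LFD array of that time. The difference was -0.37 ± 0.21 at 12 weeks (limma adjusted p = 0.414) and -0.22 ± 0.12 averaged over the 3 times (95% interval -0.48 to 0.04, adjusted p = 0.324). The HFD array above the others at 12 weeks, replicate 3, was the one without high hepatocyte transcripts, and the single arrays without them differed by 0.17 the other way. The mesothelial mean also varied there: it was 7.27, 8.22, 8.31 and 6.61 on the HFD arrays at 12 weeks, in replicate order, against 7.96 to 8.33 on the LFD arrays, and its part in the Bmp4 values was not tested.

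Bmp6, an endothelial ligand that in liver controls the iron hormone hepcidin, overlapped between diets at each time. At 12 weeks it was 7.63, 8.28, 8.46 and 8.39 in HFD mice, against 8.28, 8.14, 8.24 and 8.30 in LFD mice. The difference averaged over the 3 times was 0.07 ± 0.13 (95% interval -0.21 to 0.35, limma adjusted p = 0.840). Its lowest levels were 6.49 on chow replicate 1 and 7.00 on LFD replicate 1 at 4 weeks, against 7.63 to 8.46 on the other 23 arrays. The same arrays had the lowest means of the endothelial list, at 7.94 and 8.14, against 8.81 to 9.41 elsewhere. Both arrays were also among the 3 highest in epididymis genes, at 10.64 and 5.09. Their means were 8.54 and 8.07 for the mural list, which reached 9.06, and 10.36 and 11.19 for the adipocyte list, which reached 11.61. The third of the epididymis arrays, HFD replicate 1 at 4 weeks with a mean of 9.07, had 7.93 for Bmp6 and 9.10 for the endothelial list. The part of these transcripts in the low Bmp6 values was not tested.

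**Figure D2:**
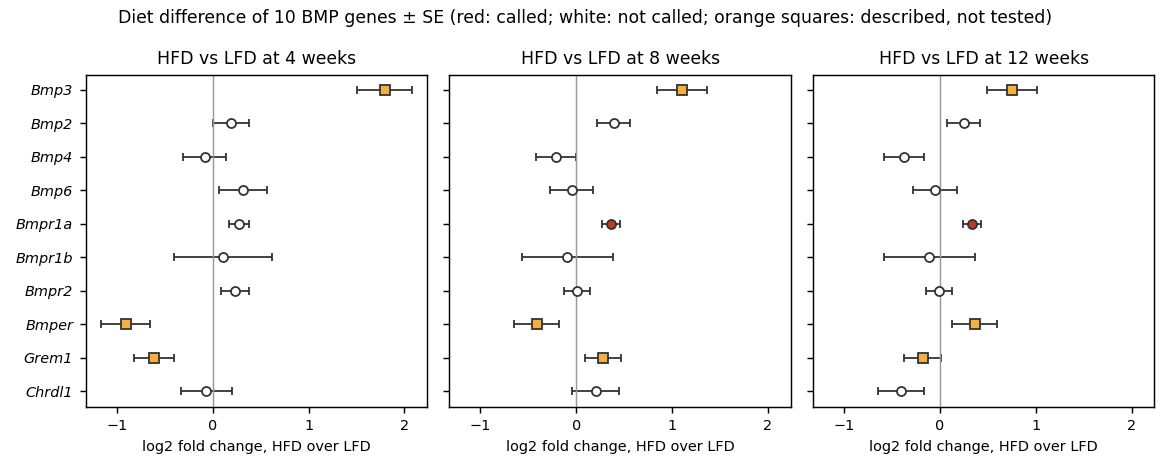
Difference between HFD and LFD mice for each of the 10 BMP genes at 4, 8 and 12 weeks (x axis, log2 fold change; bars, SE of the limma fit). Red points were called at an adjusted p under 0.05, white points were not, and orange squares belong to genes chosen on these values and carry no test. Bmp3 ran from 1.79 at 4 weeks to 0.76 at 12 weeks, and Bmpr1a was between 0.27 and 0.37 at all 3 times.

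Among the receptors, Bmpr1a was the member that differed between diets. It encodes the type I receptor ALK3, which phosphorylates Smad1, Smad5 and Smad9 after BMP2 or BMP4 binds. At 4 weeks its level was 8.70, 8.41 and 8.73 in HFD mice, against 8.38, 8.38, 8.34 and 8.26 in LFD mice. The 8-week values were 8.26, 8.45, 8.46 and 8.35 in HFD mice, against 8.14, 7.94, 8.06 and 7.91 in LFD mice. The 12-week values were 8.69, 8.44, 8.47 and 8.40 in HFD mice, against 8.09, 8.08, 8.27 and 8.20 in LFD mice. The diets did not overlap at any time, although the gap at 4 weeks was only 0.03. The chow arrays, at 8.44 and 8.33, lay within the range of the 4-week arrays of both diets together.

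Averaged over the 3 times, Bmpr1a rose by 0.33 ± 0.06 in HFD against LFD mice (1.25-fold, 95% interval 0.21 to 0.44, limma adjusted p = 3.48e-04), where 10.5% of all genes were called. It was the only one called of the 9 members tested in that comparison. The difference was 0.37 ± 0.09 at 8 weeks (limma adjusted p = 0.0386; 2.4% of genes called) and 0.34 ± 0.09 at 12 weeks (adjusted p = 0.0366; 4.46% called). At 4 weeks it was 0.27 ± 0.10 and was not called (adjusted p = 0.365; 0.212% called). The averaged call held with each of 23 arrays left out. The calls at single times were less firm: Bmpr1a was called in 1 of 8 such fits at 8 weeks (without LFD replicate 1) and in 3 of 8 at 12 weeks, with adjusted p up to 0.113 and 0.134.

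Mean Bmpr1a was higher in HFD mice on both sides of the hepatocyte split. On arrays with high hepatocyte transcripts the mean was 8.42 in HFD and 8.04 in LFD mice at 8 weeks, and 8.51 in HFD and 8.12 in LFD mice at 12 weeks. On the others it was 8.26 in HFD (1 array) and 7.99 in LFD mice (2 arrays) at 8 weeks. At 12 weeks it was 8.47 in HFD and 8.27 in LFD mice there (1 array each). These numbers of arrays are too small to show whether the difference holds. With the split as a block the averaged difference was 0.32 (limma adjusted p = 5.51e-04), and on the 14 arrays without high hepatocyte transcripts it was 0.25 (adjusted p = 0.407, with fewer arrays). A difference of this size lies under the 1.5-fold limit named in the study's design text.

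Over time, Bmpr1a fell by 0.28 ± 0.07 in 8-week against 4-week mice averaged over both diets (limma adjusted p = 0.0435; 1.28% of genes called), a comparison added after the values had been seen. That call held in 3 of 15 fits that left out an array, and the value without the 3 arrays highest in epididymis genes was -0.25 (adjusted p = 0.0939). At 12 against 4 weeks the difference was -0.15 ± 0.07 and was not called (adjusted p = 0.240; 4.13% of genes called).

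The promoter of Bmpr1a is shown because it is the member whose tested diet difference held without each array. The sequence is the RefSeq entry for chr14:34502497-34502796 (GRCm38.p6, minus strand), from 250 bases before to 50 bases after the start of the gene. Capitals mark GGCGCC, a GC-rich word bound by Smad1, and CCAAT, the core of the CCAAT box, on either strand. Of 32851 promoter windows of 300 bases, 11.9% held GGCGCC and 37.4% held CCAAT.
Bmpr1a: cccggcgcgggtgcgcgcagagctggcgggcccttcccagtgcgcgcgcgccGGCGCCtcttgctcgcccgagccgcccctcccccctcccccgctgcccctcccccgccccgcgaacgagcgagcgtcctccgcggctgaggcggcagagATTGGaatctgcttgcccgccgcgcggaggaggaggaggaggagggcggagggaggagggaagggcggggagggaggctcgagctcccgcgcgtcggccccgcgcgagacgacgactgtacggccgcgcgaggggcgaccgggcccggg
The window held 1 GGCGCC and 1 CCAAT, the second of them on the opposite strand as ATTGG, and its GC content was 79.3%, against a median of 52.7% over all windows. A match is a description and not a binding site.

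Bmpr2, the type II receptor that activates Bmpr1a, was not called in any comparison. Its levels ran from 10.86 to 11.93, and the lowest was LFD replicate 1 at 4 weeks. At 12 weeks it was 11.56, 11.66, 11.92 and 11.93 in HFD mice, against 11.72, 11.68, 11.87 and 11.82 in LFD mice. The diets overlapped at each time, and the averaged difference was 0.08 ± 0.08 (95% interval -0.09 to 0.25, limma adjusted p = 0.655).

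Bmpr1b, the type I receptor known from cartilage and the ovary, was dim. Its mean of 3.94 lay below the median cluster mean of 5.14. It had 7.23 (chow replicate 1), 5.34 (LFD replicate 1 at 4 weeks) and 5.08 (HFD replicate 1 at 4 weeks), and between 3.27 and 3.98 on every other array. These were the 3 arrays with the highest epididymis means, and 1 such array was in each of chow, HFD at 4 weeks and LFD at 4 weeks. The part of those transcripts in the Bmpr1b level was not tested. The averaged difference between HFD and LFD was -0.03 ± 0.28 (95% interval -0.62 to 0.55, limma adjusted p = 0.973).

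**Figure D3:**
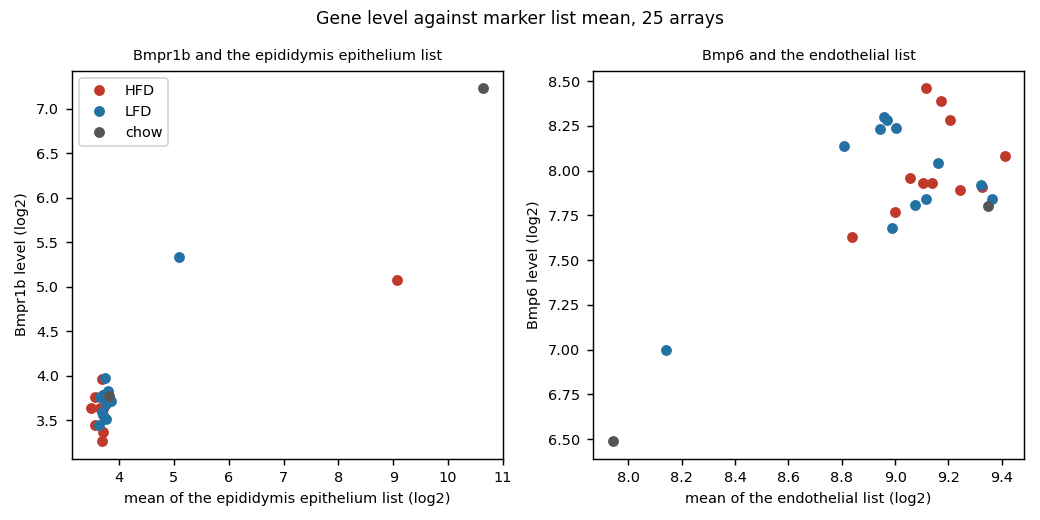
Left, level of Bmpr1b against the mean of the epididymis epithelium list on each of 25 arrays; right, level of Bmp6 against the mean of the endothelial list (all axes log2; red HFD, blue LFD, grey chow). The 3 arrays with epididymis means of 5.09 to 10.64 held the 3 highest Bmpr1b levels, and the 2 arrays with endothelial means of 7.94 and 8.14 held the lowest Bmp6 levels.

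Among the antagonists, Bmper and Grem1 were highest in LFD mice at 4 weeks and lower in LFD mice at later times. Bmper, the homologue of the fly protein crossveinless 2, binds BMPs and can block or promote their signalling depending on its amount. At 4 weeks Bmper was 6.73, 7.39 and 7.15 in HFD mice, against 7.98, 8.19, 7.96 and 7.86 in LFD mice. Bmper at 8 weeks was 7.10, 6.62, 7.08 and 6.62 in HFD mice, against 6.80, 7.67, 7.44 and 7.15 in LFD mice. Bmper at 12 weeks was 7.22, 6.89, 7.20 and 6.78 in HFD mice, against 6.56, 6.61, 6.80 and 6.65 in LFD mice. The LFD arrays at 12 weeks lay more than 1 unit below those at 4 weeks, with no overlap, while the HFD arrays of the 3 times overlapped. The chow arrays were 6.78 and 8.29, the lower being the one with 10.64 for the epididymis list.

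The described change of Bmper on LFD was -0.73 ± 0.23 at 8 against 4 weeks and -1.34 ± 0.23 at 12 against 4 weeks. On HFD it was -0.24 ± 0.25 at 8 against 4 weeks and -0.07 ± 0.25 at 12 against 4 weeks, and the sign of the 12-week value depended on single arrays. The difference between HFD and LFD was -0.91 ± 0.25 at 4 weeks, with no overlap, -0.41 ± 0.23 at 8 weeks and 0.37 ± 0.23 at 12 weeks. Its average over the 3 times, which weights the times equally, was not the value that chose the gene and was tested. It shares arrays with the choice by time, LFD mice at 4 weeks among them, so the test is not independent of that choice. The average was -0.32 ± 0.14 (95% interval -0.61 to -0.03, limma adjusted p = 0.177). It was called when only the compared groups were fitted (adjusted p = 0.0441). Because the difference had opposite signs at 4 and 12 weeks, this average describes neither time. In order of level, group means were 8.00 ± 0.14 in LFD mice at 4 weeks, 7.54 ± 1.07 in chow mice and 6.66 ± 0.10 to 7.26 ± 0.38 in the other groups, and no step between neighbours in that order exceeded the larger SD.

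Grem1, a secreted antagonist that binds BMP2 and BMP4, was dim, with a mean of 4.58. At 4 weeks its level was 4.63, 4.63 and 4.45 in HFD mice, against 5.84, 4.72, 5.48 and 4.69 in LFD mice. Grem1 at 8 weeks was 4.39, 4.39, 4.64 and 4.60 in HFD mice, against 4.09, 4.01, 4.42 and 4.38 in LFD mice. Grem1 at 12 weeks was 4.48, 4.22, 4.21 and 4.55 in HFD mice, against 4.67, 4.70, 4.34 and 4.46 in LFD mice. LFD replicates 1 and 3 at 4 weeks stood above all other arrays, and the same 2 mice had the lowest Bmp3 of their group, at 6.12 and 6.43. The described change on LFD was -0.96 ± 0.19 at 8 against 4 weeks and -0.64 ± 0.19 at 12 against 4 weeks, and on HFD it was -0.07 ± 0.21 and -0.21 ± 0.21 at the same times.

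The LFD values of Grem1 rested partly on LFD replicate 1 at 4 weeks. Without the 3 arrays highest in epididymis genes, that array among them, the change on LFD was -0.74 at 8 against 4 weeks and -0.42 at 12 against 4 weeks, a value 1.5 times smaller. For Bmper the values without them were -0.74 and -1.35. The difference in Grem1 between HFD and LFD averaged over the 3 times was -0.17 ± 0.11 (95% interval -0.41 to 0.07, limma adjusted p = 0.438). This average too shares arrays with the choice by time.

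**Figure D4:**
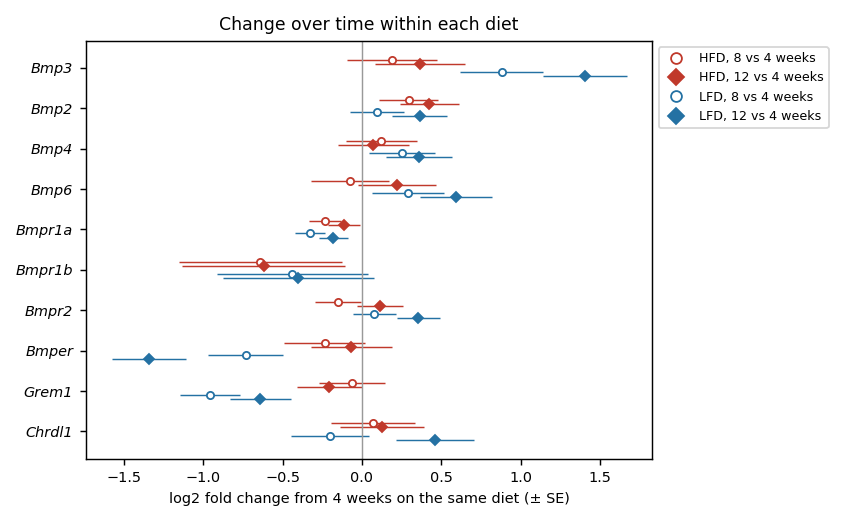
Change of the 10 BMP genes from 4 weeks on the same diet (x axis, log2 fold change; bars, SE), for HFD (red) and LFD (blue) at 8 weeks (circles) and 12 weeks (diamonds). Bmper reached -1.34 and Bmp3 1.41 on LFD at 12 weeks, where the HFD values were -0.07 and 0.37.

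The promoters of Bmper and Grem1 are shown together because both genes had their highest group mean in LFD mice at 4 weeks. They are RefSeq windows of the same extent and build, chr9:23222826-23223125 (plus strand) and chr2:113758599-113758898 (minus strand), with the same words in capitals.
Bmper: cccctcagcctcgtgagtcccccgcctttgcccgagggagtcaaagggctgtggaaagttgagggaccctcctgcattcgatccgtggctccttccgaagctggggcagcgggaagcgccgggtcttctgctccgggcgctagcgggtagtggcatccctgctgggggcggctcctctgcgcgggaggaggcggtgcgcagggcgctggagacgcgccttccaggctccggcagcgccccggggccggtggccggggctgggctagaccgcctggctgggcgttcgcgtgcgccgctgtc
Grem1: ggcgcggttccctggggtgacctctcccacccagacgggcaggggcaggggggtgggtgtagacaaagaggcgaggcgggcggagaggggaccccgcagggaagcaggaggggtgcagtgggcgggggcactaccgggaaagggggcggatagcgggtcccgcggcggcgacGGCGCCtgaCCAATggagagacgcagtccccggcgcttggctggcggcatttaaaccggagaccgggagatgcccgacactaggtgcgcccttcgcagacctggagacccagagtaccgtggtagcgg
The Grem1 window held 1 GGCGCC and 1 CCAAT and the Bmper window held neither word, with GC contents of 70.7% and 72.7%. The absence of these letters says nothing about Smad binding. Of the 10 genes, 7 had a window in the RefSeq table.

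Chrdl1, a chordin-like antagonist of BMP4, overlapped between diets at each time. Chrdl1 at 12 weeks was 9.32, 10.33, 10.25 and 9.61 in HFD mice, against 10.51, 9.94, 10.50 and 10.17 in LFD mice. Chrdl1 at 8 weeks was 9.69, 9.95, 9.96 and 9.69 in HFD mice, against 9.58, 9.47, 10.17 and 9.26 in LFD mice. The averaged difference was -0.09 ± 0.14 (95% interval -0.39 to 0.21, limma adjusted p = 0.810). LFD mice at 12 weeks were 0.66 ± 0.24 above LFD mice at 8 weeks, which was not called (adjusted p = 0.411).

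Over time within a diet, none of the 7 members tested was called by limma in any of the 6 comparisons. At an unadjusted p under 0.05 there was Bmpr1a in LFD 8 against 4 weeks (-0.33 ± 0.09) and in HFD 8 against 4 weeks (-0.23 ± 0.10). In LFD 12 against 4 weeks there were Bmp2 (0.36 ± 0.17), Bmp6 (0.59 ± 0.23) and Bmpr2 (0.35 ± 0.13), in HFD 12 against 4 weeks Bmp2 (0.42 ± 0.19), in LFD 12 against 8 weeks Chrdl1, and in HFD 12 against 8 weeks none. Few genes of any kind were called there. On LFD these were 0.636% in 8 against 4 weeks, 0.681% in 12 against 4 weeks and 0.0676% in 12 against 8 weeks. On HFD they were 0% in 8 against 4 weeks, 0.573% in 12 against 4 weeks and 0.0361% in 12 against 8 weeks. At an unadjusted p under 0.05, the limma counts among all 22180 genes on LFD were 3446, 3335 and 1976, in the same order. On HFD those counts were 1964, 2485 and 1635. The interaction of diet and time called none of the 7 members tested and 0% of all genes (0 of 7 and 1199 genes at an unadjusted p under 0.05 by limma). The analysis of variance named in the study's methods, unadjusted and with its 1.5-fold limit, called 446 genes for the interaction and none of these members. The interaction was not tested for Bmp3, Bmper or Grem1.

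Beyond the 10 genes, 52 of 56 further pathway genes were measured. Between diets in the average over the 3 times, 6 of 52 were called, a share near the 10.5% of all genes. The median difference of the 52 was -0.01, and that of all genes was -0.01. The 4 that rose in HFD mice were all on the list of extracellular antagonists and modulators, which was written with earlier results known. Fstl1, a follistatin-like glycoprotein that binds BMP4, rose by 0.48 ± 0.09 (limma adjusted p = 9.34e-04). Crim1, a membrane protein that tethers BMPs, rose by 0.39 ± 0.10 (adjusted p = 0.0105). Fstl3, an activin antagonist, rose by 0.40 ± 0.12 (adjusted p = 0.0386), and the last was Bmp1. Despite its name, Bmp1 is a procollagen protease that also cleaves chordin (0.38 ± 0.08, adjusted p = 0.00387). The 2 that fell were the type II receptor Acvr2b (-0.27 ± 0.08, adjusted p = 0.0450) and the transducer Smad9 (-0.42 ± 0.11, adjusted p = 0.0174). With 1 array left out at a time, the calls of Fstl1, Bmp1, Crim1 and Smad9 held in 23 of 23 fits, that of Fstl3 in 9 and that of Acvr2b in 8. Marker lists moved in the same comparison: 5 of 11 progenitor and fibroblast markers rose (median difference of the 11, 0.31) and 14 of 14 macrophage markers rose, and their part in these values was not tested. By role, 0 of 11 ligands, 1 of 8 receptors and coreceptors, 4 of 16 extracellular modulators, 1 of 9 transducers or intracellular inhibitors and 0 of 8 targets were called, beside 10.5% of all genes.

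At single times, Bmp1 rose at 8 weeks (0.56 ± 0.14, limma adjusted p = 0.0368; 2.4% of genes called) and Fstl1 rose at 12 weeks (0.64 ± 0.15, adjusted p = 0.0149; 4.46% called), where the Fstl1 range was 8.76 to 9.42 in HFD mice and 8.21 to 8.52 in LFD mice. The Bmp1 call held in 2 of 8 fits with an array left out (without HFD replicate 2 or LFD replicate 3) and the Fstl1 call in 6 of 8 (not without HFD replicate 4 or LFD replicate 1). At 4 weeks limma called 0 of the 52 (3 at an unadjusted p under 0.05), beside 0.212% of all genes (2069 genes at an unadjusted p under 0.05). The Id genes, the classical targets of BMP signalling, did not pass the test between diets: the averaged difference was -0.16 ± 0.17 for Id1, 0.16 ± 0.14 for Id2 and 0.13 ± 0.18 for Id3. The same held for the antagonists Nog (-0.15 ± 0.11) and Fst (-0.13 ± 0.12), the inhibitory Smad6 (0.21 ± 0.11) and the type II receptor Acvr2a (-0.04 ± 0.07). The smallest limma adjusted p of these 7 was 0.264, for Smad6.

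Against chow, Fstl1 rose in HFD mice at 4 weeks (1.10 ± 0.20, limma adjusted p = 0.00246; 4.18% of genes called). In LFD mice at 4 weeks Tll1, a protease of the Bmp1 family, rose (0.82 ± 0.16, adjusted p = 0.0179) and Chrdl2, a chordin-like antagonist, fell (-0.81 ± 0.20, adjusted p = 0.0436; 1.55% called). These comparisons rest on 2 chow arrays, of which replicate 1 had the epididymis mean of 10.64, and without it none of the 3 was called. Over time averaged over diets, Bmp10, a ligand known from the heart (0.63 ± 0.17, adjusted p = 0.0416), and Hamp, the hepatocyte hormone hepcidin (5.14 ± 1.41, adjusted p = 0.0428), rose at 12 against 4 weeks (4.13% called). Hamp ran from 3.40 to 12.94 among the 12-week arrays, 14 of 24 hepatocyte genes rose in the same comparison, and the part of hepatocyte transcripts in both values was not tested. Neither was called with the hepatocyte split as a block, and with 1 array left out at a time the calls held in 2 of 15 fits for Bmp10 and 3 of 15 for Hamp.

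**Figure D5:**
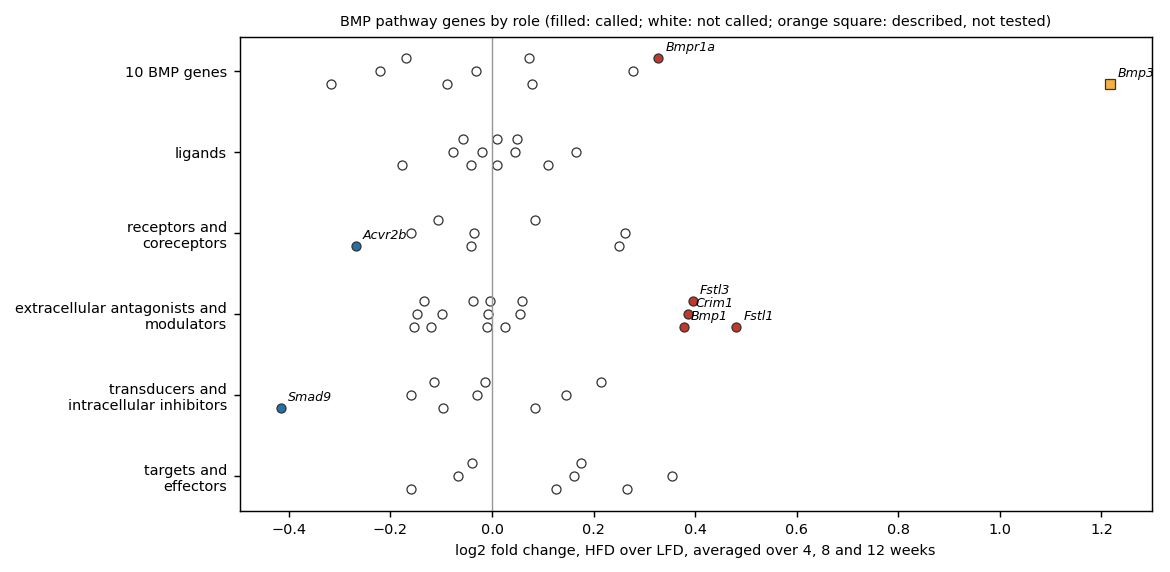
Difference between HFD and LFD mice averaged over 4, 8 and 12 weeks (x axis, log2 fold change) for the 10 BMP genes and 52 further pathway genes by role. Filled points were called at an adjusted p under 0.05, white points were not, and the orange square is Bmp3, which carries no test. Outside the 10 genes, 4 of 16 extracellular modulators were called, at 0.38 to 0.48, and the median of those 16 was -0.005. Of the other roles, 0 of 11 ligands, 1 of 8 receptors and coreceptors, 1 of 9 transducers or intracellular inhibitors and 0 of 8 targets were called. Among all genes the share was 10.5%.

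The genes whose pattern over the 25 arrays was most like Bmp3 were Fgf13 (Pearson r = 0.952), Mest (0.941), Serpinf1 (0.938), Lbp (0.929) and Cyp4v3 (0.927). The arrays share diet and time groups, and with the group means removed the correlations of these 5 were 0.61 to 0.80. For Bmper they were Shld1 (r = 0.807), Khnyn (0.789), C7 (0.780), Kansl3 (0.776) and Pramel (0.763). For Grem1 they were Stk33 (r = 0.842), Lrp1b (0.805), Col9a2 (0.799), Olfr1371 (0.795) and Ttll9 (0.794). Of these, Stk33 covered 3.51 to 5.05, Lrp1b 3.43 to 4.04 and Pramel 2.66 to 3.80, below the median cluster throughout. These are likenesses of pattern on the same arrays and carry no test.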

How the data were processed

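Tissue was hybridised to Affymetrix Mouse Gene 2.0 ST arrays, 1 mouse each, and the authors processed them in the Transcriptome Analysis Console 4.0.2, per the submitters' processing notes. The deposited log2 values (1.73 to 14.13) are taken as log2 from that range; for background correction and normalization, the method is not given in the sources used here. Of 34472 transcript clusters, 23521 had 1 gene symbol; the cluster with the highest mean stood for each of 22180 genes. limma 3.58.1 in R 4.3.3 fitted 7 group means to all 25 arrays (18 residual degrees of freedom) and p-values were adjusted by Benjamini-Hochberg over all genes; an adjusted p under 0.05 was a call. The number of arrays limits the precision. The members, pathway lists and marker lists were chosen with earlier results of these data known. Named were the 10 members, the called pathway genes, 7 preset pathway genes, and the 5 genes most correlated with Bmp3, Bmper and Grem1. The comparisons of 8 and 12 with 4 weeks averaged over diets were added after the data had been seen. The fit was tested on simulated data. The labels do not say that replicate numbers pair mice, and the main fit used no pairing. Deviations of 67 same-numbered pairs correlated at -0.61 to 0.71 (mean 0.08), 29 of them over 0.1. Those of 199 differently numbered pairs correlated at -0.71 to 0.65 (mean -0.03), 51 of them over 0.1. Promoter windows came from RefSeq (GRCm38.p6). Alternatives covered the samples fitted, normalization, filters, weights, thresholds, transcripts of other tissues and each array left out.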

Additional observations from a re-analysis of the deposited data

Results flagged for a closer look

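Among 50 sets of 4 arrays of 1 gene and group, 3 had an array far from the other 3, by Dixon's criterion, and chance flags about 5% of such sets. In LFD mice at 8 weeks, Bmp4 was 8.19 in replicate 3 and at most 7.72 in the others. In LFD mice at 4 weeks, replicate 1 had 7.00 for Bmp6, against at least 7.84 in the others, and 5.34 for Bmpr1b, against at most 3.83. The last array also had an epididymis mean of 5.09 and an endothelial mean of 8.14, and whether these account for the gaps was not tested.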

How the results depend on the processing

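Counts below are of the 10 members and 52 other pathway genes called. In 164 of 214 alternatives they stayed within 1.5 times the count reported, and in 50 they moved. The 164 include counts of 0 that stayed 0, so this share does not show how well the counts above 0 held. The counts reported were 2 for HFD vs LFD at 8 weeks, 2 at 12 weeks, 7 averaged over time, 3 for LFD 4 weeks vs chow, 1 for HFD 4 weeks vs chow, 1 for 8 vs 4 weeks and 3 for 12 vs 4 weeks averaged over diets, and 0 elsewhere. Fitting only the compared groups gave 0 at 8 weeks and in both chow comparisons. Quantile normalization gave 1 at 12 weeks, 1 in LFD 8 vs 4 weeks and 2 in the averaged 8 vs 4 weeks. Median centring gave 0 at 8 weeks, 1 in LFD 4 weeks vs chow and 0 in the averaged 8 vs 4 weeks. Without dim genes there were 3 in HFD 4 weeks vs chow and 2 in the averaged 8 vs 4 weeks. All clusters gave 0 at 8 weeks, 1 at 12 weeks and 1 in LFD 4 weeks vs chow, and an intensity trend with robust moderation gave 2 in HFD 4 weeks vs chow. Array weights gave 4 at 12 weeks, 11 averaged over time (Bmp2 among them), 1 in LFD 8 vs 4 weeks, 5 in LFD 12 vs 4 weeks, 0 in both chow comparisons, and 6 and 8 in the averaged 8 and 12 vs 4 weeks. The 1.5-fold limit gave 0 at 8 weeks, 1 at 12 weeks, 0 averaged over time and 0 in the averaged 8 vs 4 weeks, since most differences are smaller. The methods' analysis of variance gave 0 averaged over time with or without adjustment, and 1 for the interaction unadjusted (Id2).

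With the hepatocyte split as a block both averaged time comparisons gave 0. With hepatocyte and epididymis covariates there was 1 at 8 weeks, 0 in LFD 4 weeks vs chow, 2 in HFD 4 weeks vs chow and 0 in both averaged time comparisons. Only arrays without high hepatocyte transcripts gave 0 at 8 weeks, at 12 weeks, averaged over time, in both chow comparisons and in both averaged time comparisons, with fewer arrays. Without the 3 epididymis arrays there were 4 at 8 weeks, 5 at 12 weeks, 0 in LFD 4 weeks vs chow and 2 in the averaged 8 vs 4 weeks. Leaving out each array in turn gave 0 to 1 at 8 weeks, 0 to 3 at 12 weeks, 0 to 2 in LFD 12 vs 4 weeks, 0 to 2 and 1 to 4 in the averaged 8 and 12 vs 4 weeks, 0 to 12 in LFD 4 weeks vs chow and 1 to 14 in HFD 4 weeks vs chow. The 12 and 14 came without chow replicate 2, which leaves replicate 1 as the only chow array, and the 0 without chow replicate 1. At 12 weeks the 0 came without LFD replicate 1, and the 2 in LFD 12 vs 4 weeks without LFD replicate 3 at 12 weeks. Over all genes, the 2322 called between diets averaged over time ranged under these settings, other than the methods' test, from 288 (arrays without high hepatocyte transcripts) to 3321 (array weights). The same 2 settings gave 38 and 1267 at 8 weeks (533 reported), and 14 and 2133 in the averaged 12 vs 4 weeks (917 reported). At 12 weeks the 989 ranged from 0 on those arrays to 1865 without the 3 epididymis arrays, and at 4 weeks the 47 from 0 (only the compared groups) to 237 (covariates). Where the cause is not given by fewer arrays or a stricter limit, it was not tested.

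With the replicate block the count was 2 in HFD 4 weeks vs chow and 0 in the averaged 8 vs 4 weeks, and it moved by at most 1.5 times in the other comparisons. The block follows replicate numbers, which the labels do not say pair the mice.

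Of single genes, the sign turned for Bmper, HFD 12 vs 4 weeks (0.0773 with the hepatocyte split as a block, 0.11 on arrays without high hepatocyte transcripts, 0.0825 without HFD replicate 2 at 4 weeks, 0.0133 without HFD replicate 4 at 12 weeks, range -0.25 to 0.0825 with 1 array left out), for Bmper, HFD 8 vs 4 weeks (0.01 on arrays without high hepatocyte transcripts) and for Bmp4, HFD vs LFD at 12 weeks (0.17 on the same arrays, 1 a group). Of 413 single-gene values under settings that kept every replicate or left out a set of arrays, 34 lost a call and 4 gained one. The 367 labelled unchanged include values with no test, which kept direction and moved by less than the larger group SD. They also include genes not called at first. Bmpr1a lost its call in 6 of 14 settings at 8 weeks, 5 of 14 at 12 weeks and 4 of 16 averaged over time. It lost the averaged 8 vs 4 weeks call in 8 of 14. Bmp4 lost its call in LFD 4 weeks vs chow in 8 of 14, and Bmp3 in the averaged 12 vs 4 weeks in 3 of 14.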
